A study of Mus musculus with 6 samples.

Results

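Bace2 and 7 other genes of amyloid precursor processing were followed in RNA pulled down with tagged ribosomes from mouse thalamus. The 8 genes, out of 32531 named genes in the count data, were the beta-secretases Bace2 and Bace1, the alpha-secretase Adam10, the gamma-secretase subunits Psen2 and Ncstn, and the precursor family App, Aplp1 and Aplp2. They were chosen because Bace2 was among the largest increases in the pull-down. Their differences between the groups are therefore given as a description, without a p-value, and the number that passed the threshold of the fit over all genes is printed once, beside that of all genes. All 8 had counts in every library and passed the filter on low counts.

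All samples came from the thalamus of untreated control mice of the line Cbln1-EGFP/Rpl10a (NIDA030), per the labels. The deposited files carry the name of 1 thalamic region, the parafascicular nucleus, and whether the dissection was of that region or of the whole thalamus is not settled here. In this method, translating ribosome affinity purification (TRAP), cells that express the transgene make the ribosomal protein Rpl10a fused to green fluorescent protein, and antibodies against the tag recover their ribosomes from a homogenate. The 3 immunopurified (IP) libraries held the recovered RNA and the 3 Input libraries were their reference, both labelled as ribosome-bound RNA. Nothing in the sources used here says which cells carry the tag, what age and sex the mice were, or whether a library is 1 animal or a pool, so the spread between replicates may be partly technical.

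Amyloid precursor protein is a membrane protein that is cut in steps. Shedding by an alpha-secretase such as Adam10 cuts within the amyloid peptide sequence, whereas Bace1, the main beta-secretase of neurons, cuts at its start, and gamma-secretase, a complex of a presenilin, nicastrin (Ncstn), an Aph1 protein and Psenen, then cuts within the membrane. Bace2 is the closest relative of Bace1, is known for work outside the brain such as the processing of the pigment cell protein Pmel, and can cut the precursor inside the amyloid sequence. Aplp1 and Aplp2 are relatives of App that are shed by the same kinds of enzyme but lack the amyloid sequence.

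Both beta-secretases are aspartyl proteases, and the coding stretches around their catalytic motifs show how alike and how distinct the genes are at those sites. The stretches come from the GENCODE M21 transcripts (GRCm38, the same assembly as mm10), are written 5′ to 3′ in the sense of the gene, and have the codons for Asp-Thr-Gly or Asp-Ser-Gly in capitals.
Bace2, first motif (codons 106 to 108, plus strand, exons within chr16:97357087-97399687): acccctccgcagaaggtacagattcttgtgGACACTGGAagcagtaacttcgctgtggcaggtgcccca
Bace1, first motif (codons 93 to 95, plus strand, exons within chr9:45839274-45852941): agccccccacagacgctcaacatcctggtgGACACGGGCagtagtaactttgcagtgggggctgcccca
Bace2, second motif (codons 299 to 301, plus strand, exons within chr16:97413478-97415141): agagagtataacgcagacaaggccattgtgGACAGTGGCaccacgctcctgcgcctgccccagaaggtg
Bace1, second motif (codons 289 to 291, plus strand, exons within chr9:45857243-45858462): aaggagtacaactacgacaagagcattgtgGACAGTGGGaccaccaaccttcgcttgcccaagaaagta

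Of 69 bases, 51 were the same in both genes around the first motif and 52 around the second. Over 1472 aligned coding bases the genes were 62.9% identical, and the longest run of bases shared by their transcripts was 15. The App stretch that encodes the beta cut site, with the codons for the 2 residues before and the 4 after the cut in capitals, is where Bace1 cuts.
App, beta cut site (codons 670 to 675, minus strand, chr16:84965679-84965756): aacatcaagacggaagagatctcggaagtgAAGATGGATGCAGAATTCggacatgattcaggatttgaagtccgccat
In the precursor family, App was 67.1% identical to Aplp2 and 63.4% to Aplp1 over the aligned coding bases, with longest shared runs of 24 and 14 bases.

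Assigned counts ran from 23929070 (Input replicate 1, the shallowest library) to 57385828 (IP replicate 1). Levels are given as CPM, a count relative to the library's total after scaling by the trimmed mean of M-values (TMM). Cbln1, whose name the line bears, was at 1361, 1428 and 1496 CPM in IP replicates 1 to 3 and at 68.9, 83.2 and 87.2 CPM in Input.

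Bace2 was 12.1-fold higher in IP. It had 2260, 3785 and 2925 counts in IP replicates 1 to 3, which came to 45.2, 82.5 and 68.8 CPM. In Input it had 106, 258 and 366 counts, or 4.15, 4.97 and 7.004 CPM. The lowest IP library was thus well above the highest Input library, and the groups did not overlap. The IP mean was 65.5 ± 18.9 CPM and the Input mean 5.37 ± 1.47 CPM (SD, n = 3 libraries each, as for all means below), with a log2 fold change of 3.59 (SE 0.27). In bulk RNA such as this, more cells that hold the message and more message per cell cannot be told apart.

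The coefficient of variation of Bace2 between libraries was 28.8% in IP and 27.3% in Input. Of 16898 tested genes, 24 had a larger log2 fold change.

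Bace1 was not raised with its relative. It stood at 22.3, 28.0 and 30.1 CPM in IP replicates 1 to 3 and at 33.1, 32.3 and 33.0 CPM in Input. Every IP library lay below every Input library, and the mean was 26.8 ± 4.05 CPM against 32.8 ± 0.420 CPM (log2 fold change -0.29, SE 0.14, and -0.16 without IP replicate 1). Bace1 shares 975 exonic bases, 15.4% of its exon length, with Rnf214 on the opposite strand. It also shares 951 and 135 exonic bases with opposite-strand genes that are absent from the count data. The sources used here do not give the strand setting of the counting, so the Bace1 count is less certain than that of Bace2. Bace2 shares no exonic base with another annotated gene.

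The order of the beta-secretases turned over between the groups. Of the counts of both genes, 11.2, 13.3 and 17.5% were Bace2 in the 3 Input libraries, against 67.0, 74.6 and 69.5% in the IP libraries. Per kilobase of exon length Bace1 exceeded Bace2 in Input 9.89-fold, 8.08-fold and 5.86-fold. In IP the ratio was the other way, with Bace2 1.63-fold, 2.37-fold and 1.84-fold above Bace1. In each of the 6 libraries the ratio was within a few percent of the same value when the length of 1 coding transcript replaced the exon length.

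**Figure D1:**
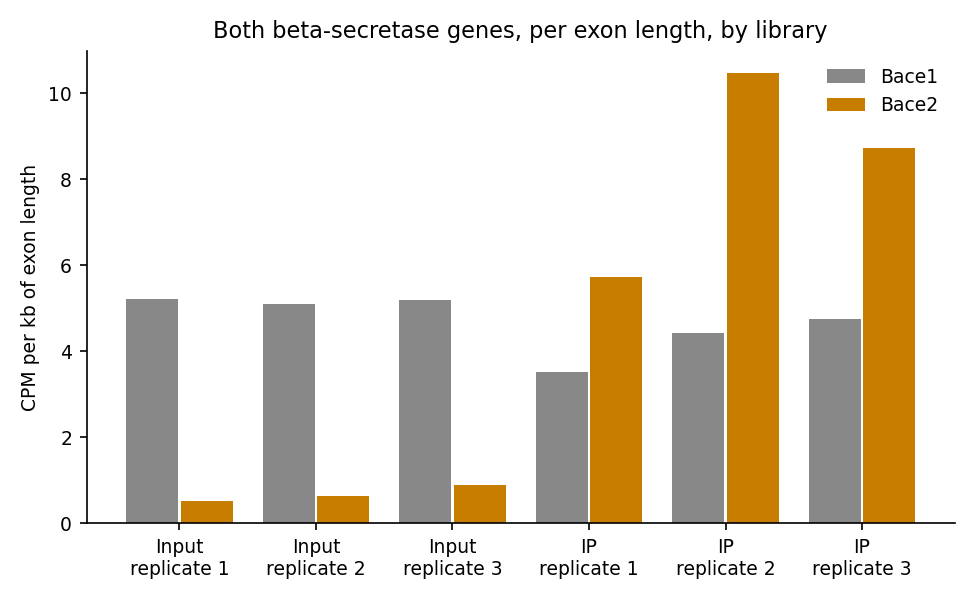
Bars show CPM per kilobase of exon length for Bace1 (grey) and Bace2 (orange) in each of the 6 libraries. Bace1 is the higher bar in all 3 Input libraries, and Bace2 is the higher bar in all 3 IP libraries, by 1.63 to 2.37-fold.

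Adam10, the alpha-secretase that sheds the precursor from the cell surface, was 1.77-fold lower in IP. Its levels were 20.3, 25.6 and 23.8 CPM in IP replicates 1 to 3 and 45.9, 39.0 and 38.2 CPM in Input. The groups did not overlap, and the highest IP library lay well under the lowest Input library (log2 fold change -0.82, SE 0.14, and -0.64 without replicate number 1).

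The gamma-secretase subunits spread widely in IP. Nicastrin, the substrate-binding subunit, had 30.6, 19.6 and 27.8 CPM in IP and 15.7, 17.0 and 20.5 CPM in Input (log2 fold change 0.55, SE 0.20, and 0.34 without replicate number 1). The groups overlapped, since IP replicate 2 lay under Input replicate 3. Psen2, a presenilin and so a catalytic subunit, was the least counted of the 8 genes in IP, with 174, 148 and 262 counts in IP replicates 1 to 3 and 129, 261 and 280 in Input. Its levels of 3.48, 3.23 and 6.17 CPM in IP lay on both sides of the Input levels of 5.05, 5.03 and 5.36 CPM (log2 fold change -0.26, SE 0.33), and the coefficient of variation in IP was 37.9%. The log2 fold change of Psen2 was -0.12, -0.09 and -0.60 without IP replicates 1, 2 and 3, so its size rests on single libraries. Ncstn shares 195 exonic bases with Copa on the opposite strand.

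App, the amyloid precursor itself, was the steadiest of the 8 genes. It stood at 390, 377 and 387 CPM in IP replicates 1 to 3 and at 329, 324 and 323 CPM in Input. The groups did not overlap and differed by 1.18-fold, with coefficients of variation of 1.77% and 1.001%. The log2 fold change was 0.24 (SE 0.07), and it was 0.064 under upper-quartile scaling and 0.0038 under library totals.

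The relatives of App also differed little between the groups. Aplp1 had 274, 301 and 281 CPM in IP and 263, 218 and 248 CPM in Input, without overlap (log2 fold change 0.23, SE 0.09, but 0.13 without replicate number 2 and -0.0016 under library totals). Aplp2 had 356, 269 and 286 CPM in IP and 283, 293 and 291 CPM in Input, so that IP replicate 1 was above all Input libraries and 1 of the other two IP libraries was below them. The log2 fold change of Aplp2 was 0.07 (SE 0.11) and changed sign under upper-quartile scaling (-0.11), under library totals (-0.17), without IP replicate 1 (-0.05) and without replicate number 1 (-0.065).

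The size of these small differences depends on the scaling, which shifts all genes by nearly the same amount. The median log2 fold change of all tested genes was -0.07 under TMM, -0.25 under upper-quartile scaling and -0.31 under library totals. Relative to the TMM median, Bace2 stood at 3.66, Ncstn at 0.62, App at 0.31, Aplp1 at 0.30, Aplp2 at 0.14, Psen2 at -0.19, Bace1 at -0.22 and Adam10 at -0.75. These relative values hardly depend on the scaling by construction.

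**Figure D2:**
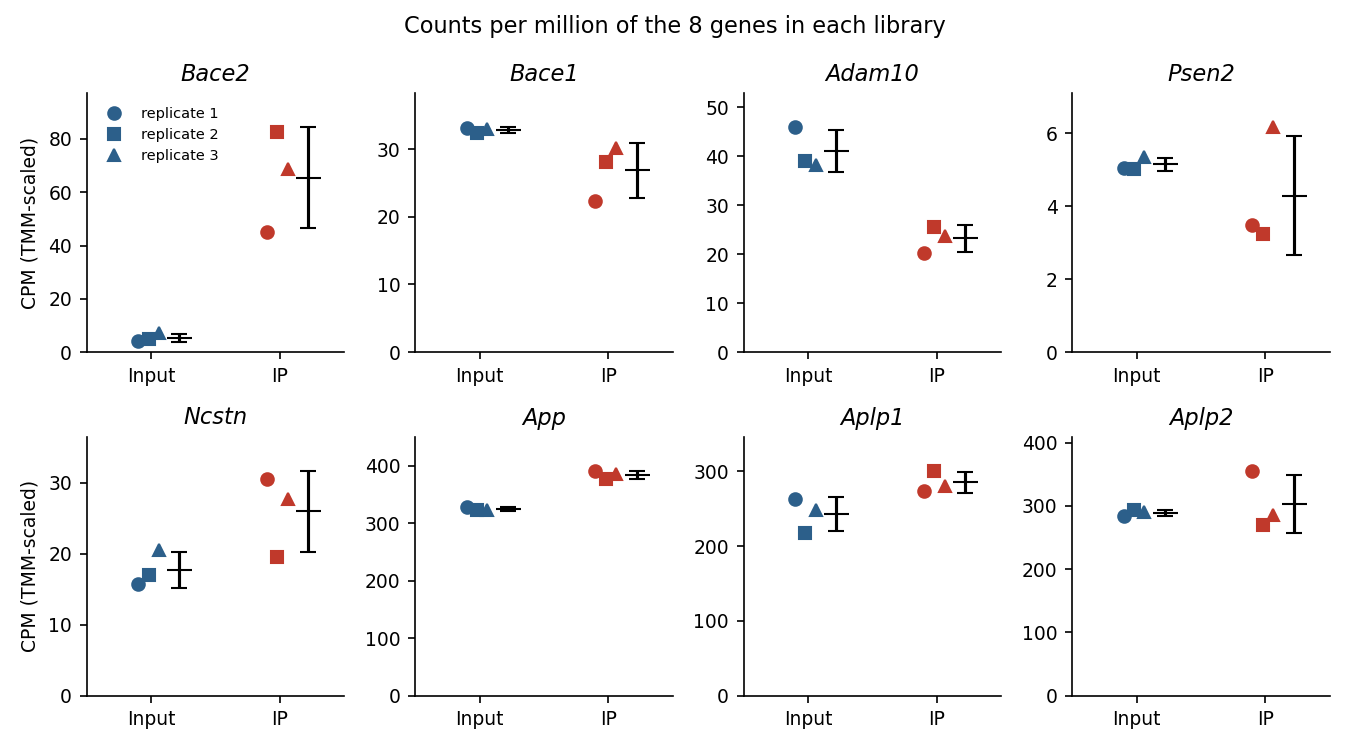
Points show TMM-scaled CPM of each of the 8 genes in the 3 Input (blue) and 3 IP (red) libraries, with the shape giving the replicate number and the black bars the mean ± SD. IP and Input separate for Bace2, Bace1, Adam10, App and Aplp1, and overlap for Psen2, Ncstn and Aplp2.

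In all, the IP and Input libraries did not overlap for 3 of the 8 genes that were higher in IP (Bace2, App, Aplp1) and 2 that were lower (Bace1, Adam10). Among all 16898 genes tested, 61.6% did not overlap, 27.9% with the higher and 33.7% with the lower level in IP. In the fit over all genes 3 of the 8 passed an adjusted p of 0.05 with the higher level in IP (Bace2, App, Ncstn) and 1 with the lower (Adam10), where 47.5% of all genes passed, 23.3% upward and 24.3% downward. Since the genes were chosen on this comparison, nothing is read from these counts. The median log2 fold change of the 8 genes was 0.15.

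Per kilobase of exon length, the order of levels in Input was Aplp1 (80.4 ± 7.63 CPM per kb), Aplp2 (49.2 ± 0.866), App (25.05 ± 0.251), Adam10 (8.36 ± 0.866), Bace1 (5.17 ± 0.0662), Ncstn (4.46 ± 0.630), Psen2 (1.19 ± 0.0426) and Bace2 (0.681 ± 0.186). Libraries of Bace1 and Ncstn overlapped, though Bace1 was the higher within each Input library. The order of their means reversed with the length of 1 coding transcript, where Ncstn was at 6.11 and Bace1 at 5.41 CPM per kb. In IP, Bace2 moved from the last place to the fourth, at 8.31 ± 2.39 CPM per kb, behind the precursor family. Below it came Ncstn (6.54 ± 1.44), Adam10 (4.73 ± 0.554), Bace1 (4.23 ± 0.638) and Psen2 (0.991 ± 0.376). Bace2 and Ncstn overlapped between libraries in IP, as did Ncstn and Adam10, and the order within these pairs changed from library to library. Adam10 and Bace1 overlapped too, but Adam10 was the higher within each IP library (4.13 against 3.51, 5.22 against 4.42 and 4.84 against 4.75 CPM per kb). With the transcript length Ncstn (8.95 CPM per kb) stood ahead of Bace2 (8.57).

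Levels of cell type markers differed between the groups, and their part in the values above and below was not tested. Here and in the lists below, a gene rose or fell when it passed an adjusted p of 0.05 in the fit over all genes. Of all genes, 23.3% rose and 24.3% fell. All 8 astrocyte markers fell, with summed levels of 649 to 691 CPM in IP and 1462 to 1552 CPM in Input. Most of that sum was Slc1a2 (425 CPM in IP, 765 in Input) and Aldoc (229 and 551 CPM), and the median log2 fold change of the 8 was -3.13. All 7 oligodendrocyte markers fell (263 to 327 against 3237 to 3742 CPM), as did all 5 markers of their precursors (13.9 to 25.1 against 213 to 215 CPM) and 5 of 6 of microglia (3.42 to 6.75 against 36.6 to 43.0 CPM). Of 7 endothelial and mural markers 5 fell and 1 rose (19.2 to 27.5 against 48.2 to 53.1 CPM), with the tight junction gene Cldn5 at 0 counts in every IP library. Of 5 markers of ependyma and choroid plexus 2 fell (5.54 to 49.2 against 24.0 to 586 CPM). The low end of both ranges was replicate number 1. Ttr was at 0, 40.6 and 35.1 CPM in IP replicates 1 to 3 and at 2.78, 477 and 542 CPM in Input. Kl and Clic6 were also lowest in replicate number 1 of both groups, but Foxj1 was not. Whether the tissue of replicate number 1 differed was not tested. Among the microglia, endothelial, mural, ependyma and choroid plexus markers, those that did not pass were also lower in IP. Their log2 fold changes ran from -3.76 to -1.39, with SE of 1.01 to 2.33. All 5 GABAergic markers fell (61.1 to 80.4 against 520 to 747 CPM). All 8 general neuronal markers rose (24004 to 28223 against 12349 to 13198 CPM). Their log2 fold changes ran from 0.49 to 1.36, with a median of 1.05. Of 7 markers of thalamic glutamatergic neurons, 4 rose and 1 fell (4492 to 5067 against 3192 to 3695 CPM).

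The wider pathway was read from 5 lists of 92 genes, none of them among the 8. Of 89 tested, 25 (28.1%) rose and 24 (27.0%) fell, shares close to those of all genes (23.3% and 24.3%). The split was 19 to 32 under upper-quartile scaling and 15 to 34 under library totals. Increases made up 37.3% and 30.6% of these calls, against 36.7% and 31.9% among all genes under the same scalings. Values below, log2 fold changes where no unit is given, are from edgeR's quasi-likelihood test with Benjamini-Hochberg adjustment over all genes.

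Among 7 further secretase genes, 3 fell and 0 rose (median log2 fold change 0.07). At an unadjusted p under 0.05 edgeR gave 1 increase, Adam9, and DESeq2 gave 0 at an adjusted p under 0.05. Adam17, the second main alpha-secretase, went from 12.4, 13.9 and 13.5 CPM in Input replicates 1 to 3 to 1.28, 4.64 and 6.33 CPM in IP (-1.70, SE 0.47, adjusted p = 0.0141). Every IP library was below every Input library, as for Adam10, but without replicate number 2 the call was lost (adjusted p = 0.0787). The gamma-secretase subunits Aph1b (-0.86, SE 0.19, adjusted p = 0.00436) and Aph1c (-0.95, SE 0.23, adjusted p = 0.00832) fell together. These are near-identical copies, and reads that align to both may be among the non-unique alignments, which were left out. Non-unique alignments made up 45.9% of all lines in IP and 33.3% in Input, and their effect on these genes was not tested. Both lost their calls without replicate number 3 (adjusted p of 0.0523 and 0.0606), Aph1c also without Input replicate 3 (adjusted p = 0.0587). The remaining 4 did not pass (0.07 to 0.54). Without replicate number 3 only 1 of the 7 genes fell.

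Of 18 tested genes for secretase maturation and regulation, 5 rose and 3 fell (median 0.03). Tspan17, a tetraspanin partner of Adam10, rose from 21.0 ± 2.02 to 41.8 ± 5.93 CPM (log2 fold change 0.99, SE 0.15, adjusted p = 6.44e-04). Timp3, a secreted inhibitor of metalloproteases that include the alpha-secretases, rose from 84.1 ± 9.45 to 153 ± 9.71 CPM (0.87, SE 0.11, adjusted p = 1.99e-04). Rtn3, a reticulon that binds Bace1, rose 1.80-fold (adjusted p = 9.41e-04). Reck, a membrane-anchored metalloprotease inhibitor, fell from 9.75 ± 0.826 to 1.44 ± 0.458 CPM (-2.76, SE 0.32, adjusted p = 1.51e-04). The list's inhibitors thus moved in both directions. The count of decreases was 5 without IP replicate 1, 6 without IP replicate 3 and 6 under both other scalings. Tspan10 had 0 counts in every library and was not tested.

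Of 31 genes for adaptors and sorting receptors of the precursor, 12 rose and 7 fell (median 0.10, with 6 rising under library totals). Vps29, a subunit of the retromer that returns cargo from endosomes to the Golgi, rose 2.22-fold (from 42.9 ± 2.16 to 95.2 ± 12.9 CPM, adjusted p = 7.64e-05). The sorting receptor Sorcs3 (0.83, SE 0.17, adjusted p = 0.00378) and the Golgi adaptor Gga1, which binds Bace1 (0.76, SE 0.13, adjusted p = 0.00125), rose as well. The receptor Lrp1b fell from 88.0 ± 9.10 to 29.7 ± 2.69 CPM (adjusted p = 1.45e-05). The receptor Lrp8 (-0.84, SE 0.14, adjusted p = 0.00108) and the endocytic receptor Lrp1 (-0.80, SE 0.10, adjusted p = 1.74e-04) fell by less.

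Of 26 tested secretase substrates, 6 rose and 10 fell (median -0.29). The increases were led by Scn2b, the beta 2 subunit of voltage-gated sodium channels and a Bace1 substrate, at 456, 624 and 580 CPM in IP and 265, 254 and 266 CPM in Input (1.08 on the log2 scale, SE 0.11, adjusted p = 7.50e-05). The membrane-bound chemokine Cx3cl1, shed by alpha-secretases, rose 1.90-fold (adjusted p = 3.42e-05), and the adhesion molecule L1cam 1.83-fold (adjusted p = 1.31e-04). The receptor tyrosine kinase Erbb4 fell from 24.7 ± 2.74 to 4.42 ± 0.499 CPM (adjusted p = 1.21e-05). The receptors Notch2 (-1.96, SE 0.40, adjusted p = 0.00357) and Notch1 (-1.89, SE 0.52, adjusted p = 0.0144) fell too, and Notch1 did not pass without Input replicate 1 (adjusted p = 0.0616) or when replicate number 2 was left out (adjusted p = 0.0972). Pmel and Tmem27, both named as Bace2 substrates in other tissues, did not pass the filter on low counts. The count of increases was 3 without Input replicate 3, without replicate number 3 and under library totals.

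Among 7 enzymes that degrade the amyloid peptide, 2 rose and 1 fell (median -0.09). Mme, which encodes neprilysin, stood at 65.9, 52.6 and 66.9 CPM in IP replicates 1 to 3 and at 28.4, 25.9 and 27.2 CPM in Input. No IP library came near the Input range (1.19 on the log2 scale, SE 0.13, adjusted p = 9.23e-05). The lysosomal protease Ctsb, cathepsin B, rose 1.53-fold (adjusted p = 4.43e-04), and the endothelin-converting enzyme Ece1 fell from 51.1 ± 3.24 to 20.4 ± 6.59 CPM (adjusted p = 0.00128).

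**Figure D3:**
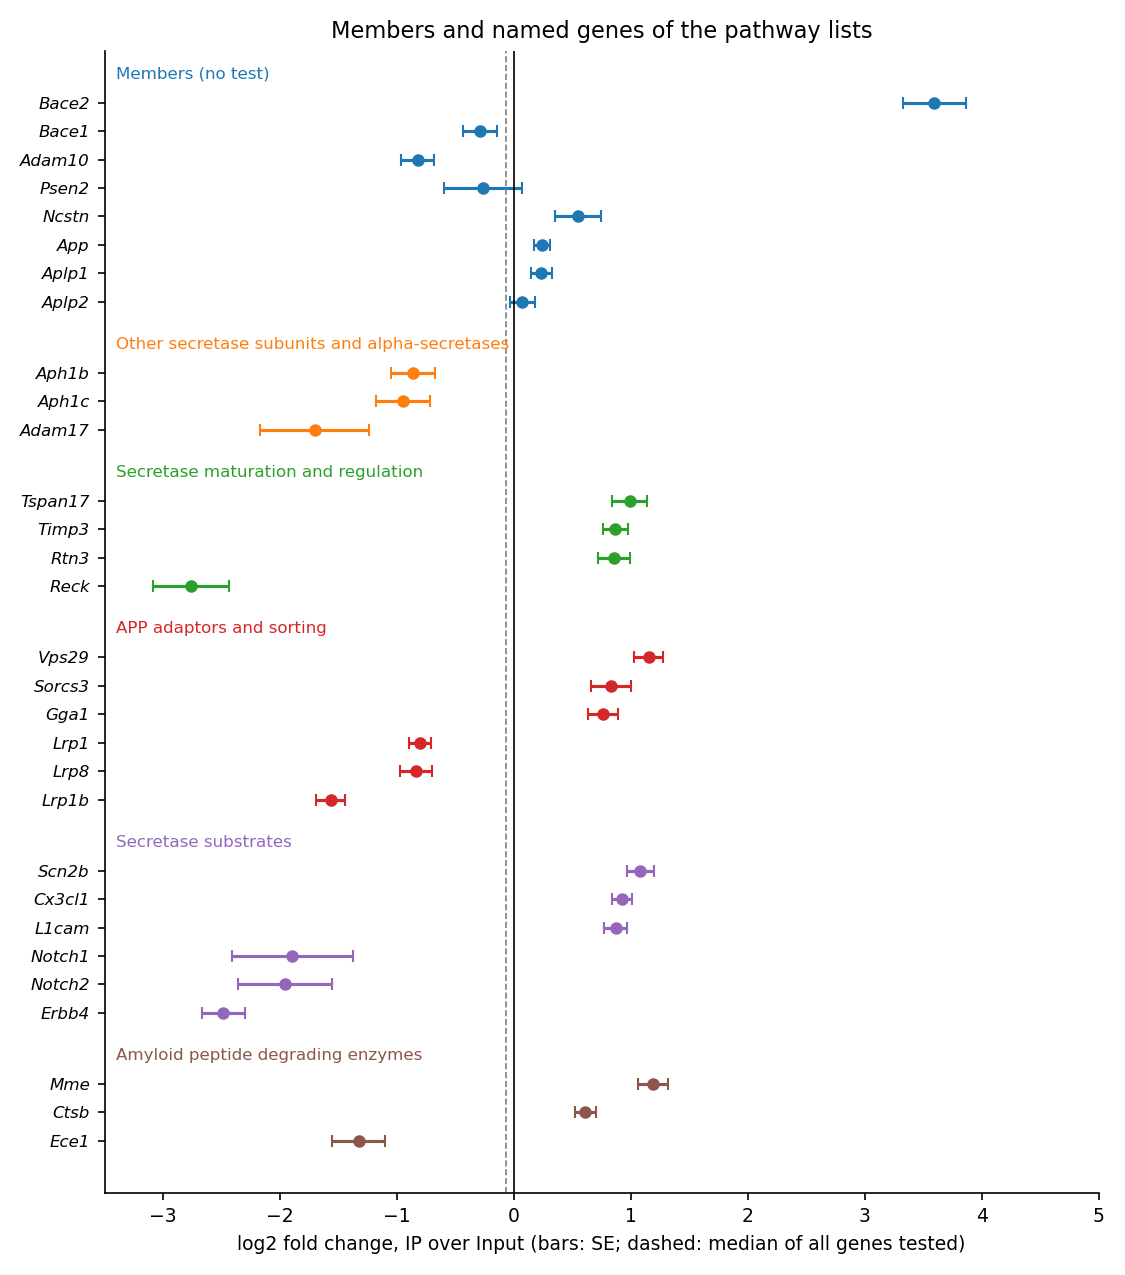
Points show log2 fold changes of IP over Input with their SE for the 8 genes (top, given without a test) and for the named genes of the 5 pathway lists. Bace2, chosen because it was among the largest increases in this comparison, is at 3.59. The other 7 members span -0.82 to 0.55, and the named pathway genes span -2.76 to 1.19.

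Bace2 lies on chromosome 16 at 97356742 to 97442936 on the plus strand (mm10), in 9 exons of its longest coding transcript, and App lies on the same chromosome at 84949685 to 85173766. Of the genes within 500 kb of Bace2, 6 were tested. Dscam, a neuronal adhesion molecule 185990 bases away, rose from 92.9 ± 6.41 to 131 ± 12.9 CPM (log2 fold change 0.49, SE 0.10, adjusted p = 0.00397), but did not pass with library totals (adjusted p = 0.110) or when replicate number 3 was left out (adjusted p = 0.0616). The nearest tested gene, the interferon-induced Mx1, lay 4099 bases past the end of Bace2 and had at most 19 counts in any library (0.57, SE 1.14, adjusted p = 0.711). Mx2 (1.38, SE 1.34, adjusted p = 0.425) had 365 counts in IP replicate 1, 22 and 1 in IP replicates 2 and 3, and 14 to 89 in Input, and its sign turned without IP replicate 1 (-1.95). Ripk4 (-0.90, adjusted p = 0.355), Prdm15 (-0.25, adjusted p = 0.353) and C2cd2 (-0.31, adjusted p = 0.157) did not pass, though C2cd2 passed with lower levels in IP under upper-quartile scaling, under library totals and without IP replicate 2 (adjusted p of 0.0371, 0.0369 and 0.0257).

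**Figure D4:**
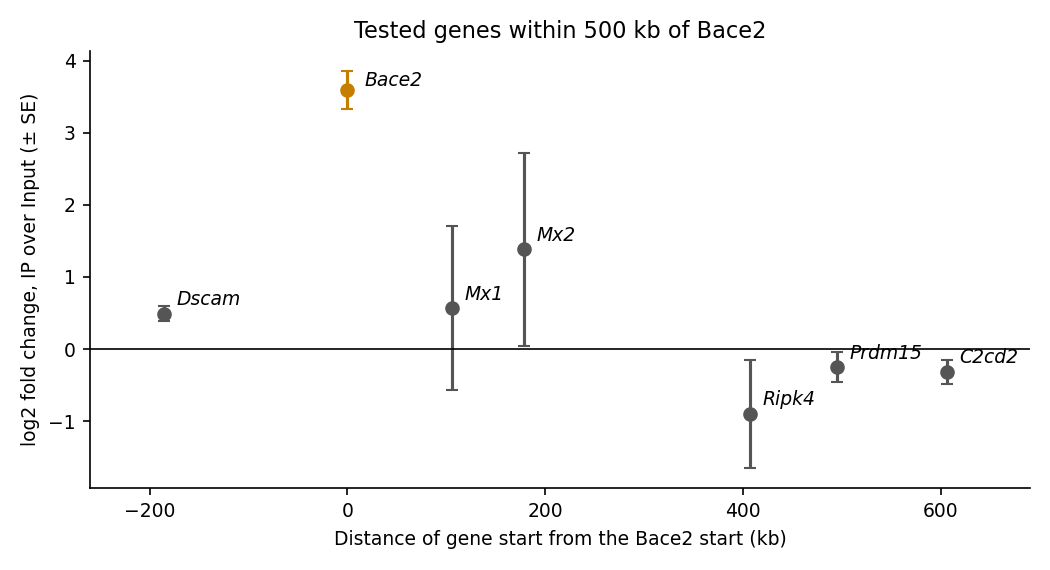
Points show log2 fold changes (± SE) of the tested genes whose bodies lie within 500 kb of Bace2, against the distance of their start from the Bace2 start in kb. Bace2 is at 3.59, and the 6 neighbours lie between -0.90 and 1.38, with wide error bars for Mx1, Mx2 and Ripk4.

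The genes whose levels ran most like those of Bace2 over the 6 libraries were found among 10787 genes that averaged 5 CPM or more, by the root mean square difference of log2 CPM centred on each gene's mean. They were Lypd6b (0.17), a Ly6 protein related to nicotinic receptor modulators, Ctxn3 (0.25), a small membrane protein, 1700011I03Rik (0.26), C130060K24Rik (0.29) and the peptide gene Grp (0.29). Lypd6b was at 245, 386 and 294 CPM in IP replicates 1 to 3 and at 24.4, 26.4 and 30.5 CPM in Input, so it shared with Bace2 both the highest IP library and the highest Input library. The measure is dominated by the difference between the groups, which also chose Bace2.

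**Figure D5:**
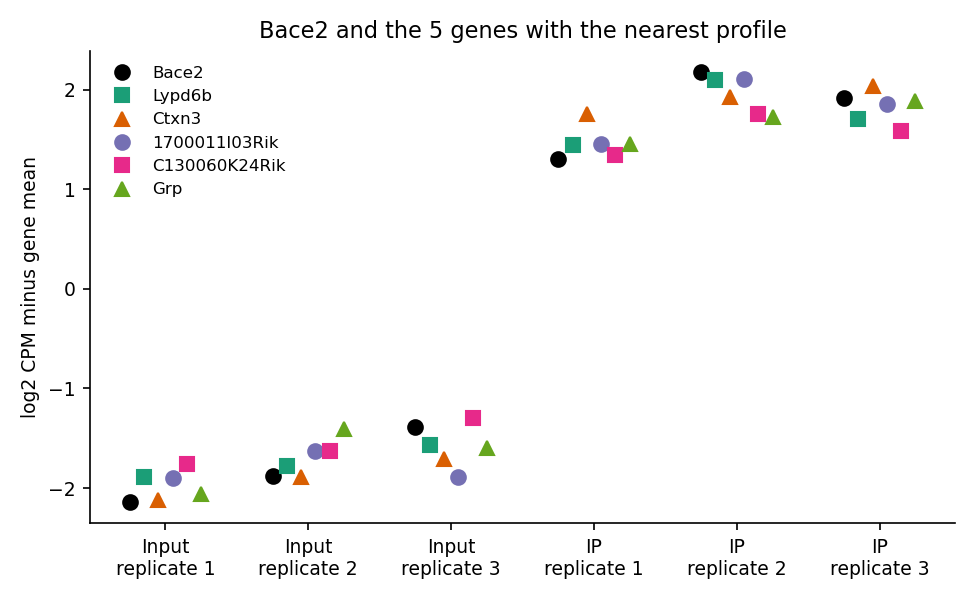
Points show log2 CPM minus the gene's mean in each of the 6 libraries for Bace2 (black) and the 5 genes nearest to it. In IP replicate 1 Bace2 is the lowest of the 6 genes, and in IP replicate 2 it is the highest.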

How the data were processed

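Reads of 6 libraries (3 IP, 3 Input) were aligned with STAR 2.0.0e to mm10 and counted with HTSeq, per the submitters' processing notes; the counting options and annotation are not given in the sources used here. The deposited values were raw counts per gene symbol, 1 file per library. The lines without a gene were left out. As a share of all lines, non-unique alignments made up 45.9 ± 3.39% in IP and 33.3 ± 0.687% in Input, reads outside features 8.87 ± 0.478% and 15.4 ± 0.591%, and reads on several features 1.48 ± 0.140% and 5.89 ± 0.622%. No 2 replicates agreed within sampling noise.

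Of 32531 named genes, 16898 passed filterByExpr (minimum count 10) and were fitted in R 4.3.3 with edgeR 4.0.16 (TMM, robust quasi-likelihood F-test, Benjamini-Hochberg adjustment over all genes tested, threshold 0.05), IP against Input without a block; DESeq2 1.42.0 was an alternative. SE came from the F statistic. A p-value here reflects the spread between these libraries alone, since separate animals are not stated. Lengths and positions are from GENCODE M21 (GRCm38), which held 23140 of the symbols, and sequences from its transcripts.

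The members, the lists and the markers were chosen with earlier results of these data known. Named genes are the 8 members, Cbln1, the 3 largest called increases and decreases of each pathway list with a mean of at least 5 CPM, tested genes within 500 kb of Bace2 and the 5 genes most like it. Adam9, Pmel, Tmem27, Tspan10, Cldn5, Slc1a2, Aldoc, Rnf214, Copa and Gm10791 were named after their values were seen.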

Additional observations from a re-analysis of the deposited data

How the results depend on the processing

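The log2 fold change of Bace2 lay between 3.34 and 3.84 over 16 alternatives. Library totals gave 2458 genes higher, where TMM gave 3930. Under library totals 15 pathway genes rose, 6 of them adaptors and 3 substrates, and 6 regulators and 3 degrading enzymes fell. Upper-quartile scaling gave 6 regulators and 2 degrading enzymes lower, and DESeq2 gave 5 regulators lower. Leaving out libraries gave 1 to 3 further secretase genes lower, 2 to 6 regulators lower and 3 to 8 substrates higher. Upper-quartile scaling and library totals gave log2 fold changes of -0.47 and -0.52 for Bace1, 0.064 and 0.0038 for App, 0.055 and -0.0016 for Aplp1, -0.11 and -0.17 for Aplp2, and -0.9997 and -1.05 for Adam10. App was at 0.20 with DESeq2, 0.26 without a filter and 0.20 with a minimum count of 50. Leaving out libraries moved App between 0.24 and 0.26, Adam10 between -0.93 and -0.64, and Aplp2 between -0.065 and 0.17, with -0.05 without IP replicate 1 and -0.065 without replicate number 1. Mx2 turned negative with the block (-1.02), without IP replicate 1 (-1.95) and without replicate number 1 (-2.24), and reached 2.54 without replicate number 2. Shifts by scaling follow the shift of the median gene; the cause of the other changes was not tested.

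IP and Input libraries of 1 replicate number share a sequencing lane, per the labels. Whether they also share a homogenate is not stated, so the main fit was unpaired. Their deviations from the group means correlated at 0.06, 0.04 and 0.01 over 16898 genes, which does not decide whether they are pairs. Ttr, a choroid plexus marker, was lowest in replicate number 1 of both groups, at 0 CPM in IP and 2.78 CPM in Input. With the replicate number as a block, 3793 genes were higher and 4038 lower, Bace2 stood at 3.60 (SE 0.19), and 25 pathway genes rose and 25 fell. IP replicate 3 correlated better with Input replicate 2 (0.02) than with its own number. Input replicate 1 had about 100 Bace2 counts, which limits the precision of its ratio.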

Other observations

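Gm10791, an antisense gene within App that shares 0 exonic bases with it, had 1, 2 and 2 counts in IP replicates 1 to 3 and 140, 281 and 306 in Input. Without a known strand setting, reads from introns of App cannot be told apart from reads of this gene.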
